A study of Homo sapiens with 4 samples.

Results

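The genes described here are 10 transcription factors and cofactors that specify and maintain the B cell lineage: PAX5, EBF1, TCF3, IKZF1, IKZF3, FOXO1, BACH2, LEF1, SPIB and POU2AF1. They were chosen by name, and each was looked up by its Ensembl ID in a table of 43450 genes. Of the 10, 9 had a row in the table and 8 reached the mean of 1 FPKM that the test required. FPKM counts fragments per kilobase of transcript, scaled to library size, so levels can be set side by side between genes.

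The cells were BLaER1, a human B precursor leukaemia line with an inducible C/EBPα transgene, grown as 1 clonal line. Poly(A) RNA came from 2 control libraries and 2 HAL7 knockdown libraries, numbered replicate 0 and 1 in each group. The knockdown cells received 3 LNA GapmeR antisense oligonucleotides against the long non-coding RNA HAL7, added to the medium. What the control cells received, and for how long, is not given in the sources used here, and the labels name no inducer of the transgene. The labels do not say whether replicates were separate cultures, so p-values measure only how far these libraries spread, and that may be technical. Wherever values of both libraries of a group are given, replicate 0 comes before replicate 1. Relative depth, read from the steps of low FPKM values, was 1 in control replicate 0 and 1.59 to 2.11 in the other libraries. HAL7 itself was listed at 0.726 and 0.613 FPKM in the controls against 0.475 and 0.347 FPKM after knockdown. It was lower in both knockdown libraries, with a ratio of knockdown to control of 0.614 but a limma adjusted p of 0.32. HAL7 was tested although its mean was under 1 FPKM. At that level, the 1 added to each FPKM before taking logs shrinks a log2 change, which was -0.24 for HAL7. In bulk RNA, fewer cells that express a gene and less RNA per cell cannot be told apart.

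B lymphocyte identity rests on a small network of DNA-binding proteins. TCF3 (E2A), a basic helix-loop-helix E protein, and FOXO1 switch on EBF1, and EBF1 in turn activates PAX5, which commits the cell to the lineage by activating B cell genes and silencing those of other lineages. Ikaros (IKZF1) and Aiolos (IKZF3) are zinc finger factors of lymphoid development, LEF1 is a WNT pathway factor of early B cell progenitors, BACH2 represses the plasma cell and myeloid programmes, and POU2AF1 (OCA-B) is a coactivator of the octamer-binding factors. In the conversion that BLaER1 cells are used for, C/EBPα replaces this network with a macrophage programme.

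The line carried the marker profile of a B cell precursor. All 13 listed pro-B and pre-B markers stood at a mean of 1 FPKM or more, and together they summed to 4988 and 4968 FPKM in the controls against 4771 and 4761 FPKM after knockdown. This list includes PAX5 and EBF1, which are themselves members. Of 7 listed plasma cell markers, 5 also stood at a mean of 1 FPKM or more. That list summed to 588 to 611 FPKM over the 4 libraries, mostly MZB1 and XBP1. Of 15 listed macrophage and monocyte markers, 13 were under 1 FPKM, with S100A8, S100A9 and FCGR3A listed at 0 in all 4 libraries. The summed macrophage level of 37.1 to 40.6 FPKM was mostly CSF1R, at 33.8 to 38.0 FPKM, with CD68 at up to 3.21 FPKM. The T cell genes CD3D, CD3G, CD2 and THEMIS, the NK cell gene KLRF1, the granulocyte genes ELANE, PRTN3, FCGR3B and CEACAM8, and the erythroid and platelet genes HBB, HBA1, HBA2, PF4 and PPBP were listed at 0 in all 4 libraries. The summed NK list stood at 31.7 and 30.7 FPKM in the controls against 25.5 and 20.6 FPKM after knockdown, mostly NKG7 with NCAM1 at 2.84 to 3.41 FPKM. The granulocyte list stood at 25.7 and 29.6 FPKM in the controls against 23.6 and 16.8 FPKM after knockdown, mostly CTSG with CSF3R at 3.46 to 4.63 FPKM. Both lists were lower in both knockdown libraries, and their part in the results below was not tested.

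The network was expressed over a wide range of levels, and its members kept 1 order in all 4 libraries. LEF1 was the most abundant, at a mean of 472 FPKM, rank 171 by level among the 12935 genes tested. TCF3 followed at 184 FPKM, EBF1 at 115 FPKM, PAX5 at 84.3 FPKM, POU2AF1 at 69.9 FPKM and IKZF1 at 54.7 FPKM. BACH2 and FOXO1 were lower, at 18.3 and 13.0 FPKM, ranks 4937 and 6304. IKZF3 stood apart at 0.0584 FPKM. For each of the 8 pairs of neighbours in this order, the ranges over the 4 libraries did not overlap. The narrowest gap was between POU2AF1, whose lowest library had 62.2 FPKM, and IKZF1, whose highest had 61.1 FPKM.

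**Figure D1:**
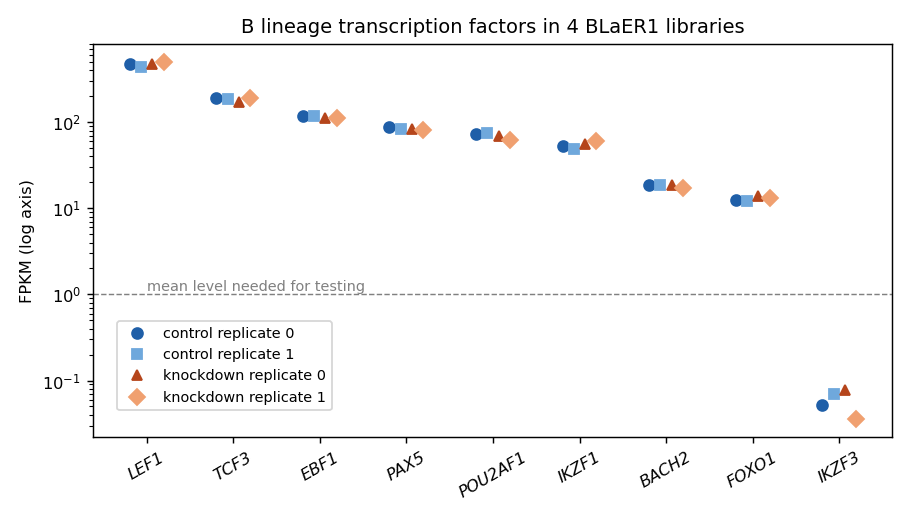
Level of each B lineage transcription factor with a row in the table, in FPKM on a log axis, with 1 point per library (blue for control, orange for knockdown). LEF1 is highest at 442 to 502 FPKM, and IKZF3 is the only member under the dashed line at 1 FPKM.

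Knockdown and control libraries differed little in any of these genes. In limma, 0 of the 8 tested members reached an adjusted p under 0.05, where 0.0309% of the 12935 genes tested did, 0.00773% on the higher and 0.0232% on the lower side. At an unadjusted limma p under 0.05 there were 2 members, IKZF1 on the higher side and POU2AF1 on the lower side, beside 16.6% of all genes tested (7.25% higher and 9.35% lower). Control and knockdown libraries did not overlap in 5 of the 8, with 2 higher and 3 lower after knockdown, beside 50.3% of all genes (22.5% higher and 27.7% lower). The members' shares lay near these background shares. The log2 changes, which are on the log2(FPKM + 1) scale throughout, ran from -0.17 to 0.20 with a median of -0.06, and the median of all genes tested was -0.01. Of the 8 members, 3 had positive and 5 had negative log2 changes, beside 53.2% negative over all genes.

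**Figure D2:**
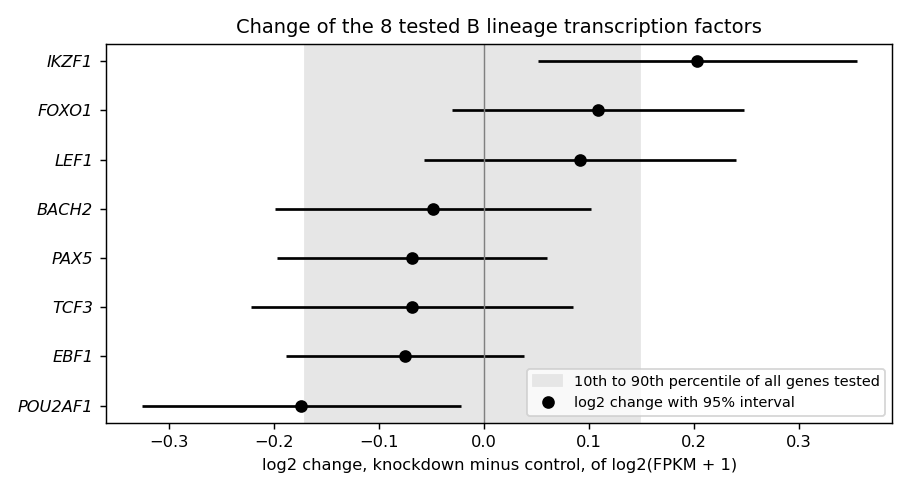
Log2 change (knockdown minus control) of each of the 8 tested members, as points with 95% limma intervals, on the log2(FPKM + 1) scale. The grey band spans the 10th to the 90th percentile of all genes tested, -0.17 to 0.15. The intervals of IKZF1 and POU2AF1 lie to either side of 0 without crossing it, and the other 6 cross 0.

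TCF3, EBF1 and PAX5, which specify and commit the lineage, stood at nearly the same level in both groups. Gene positions here and below are those of GENCODE 29 on GRCh38. TCF3 (chromosome 19, 1609290 to 1652605, minus strand) had 191 and 186 FPKM in the controls against 171 and 189 FPKM after knockdown. Its groups overlapped, since knockdown replicate 1 lay between the control libraries. The means were 189 ± 3.87 and 180.0 ± 13.0 FPKM (SD, n = 2 each), with a log2 change of -0.07, a 95% limma interval from -0.22 to 0.08 and a limma adjusted p of 0.62. The sign of this change turned to 0.0049 without knockdown replicate 0 and to 0.0025 with the transcript GC trend removed, so no direction can be given for TCF3. A fit without 1 library leaves a group with a single library, which is assumed to vary like the other group.

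EBF1 (chromosome 5, 158695916 to 159099761, minus strand) had 118 FPKM in both controls against 112 and 111 FPKM after knockdown. The groups did not overlap and the replicates lay close together, at 118 ± 0.270 and 112 ± 0.725 FPKM (SD, n = 2 each). The ratio of knockdown to control was 0.949, with a log2 change of -0.07, a 95% limma interval from -0.19 to 0.04 and a limma adjusted p of 0.46. EBF1 varied least of the 9 members over the 4 libraries, with a coefficient of variation of 3.05%. PAX5 (chromosome 9, 36833275 to 37034185, minus strand) had 89.0 and 83.7 FPKM in the controls against 82.7 and 81.8 FPKM after knockdown. Both knockdown libraries lay under both controls, and control replicate 1 was closer to them than to control replicate 0. The PAX5 ratio was 0.953, with a 95% limma interval of the log2 change from -0.20 to 0.06 and a limma adjusted p of 0.55. Its log2 change of -0.07 became -0.02 when control replicate 0 was left out and -0.11 when control replicate 1 was. It was -0.03 once the GC trend was removed.

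Short stretches of sequence around annotated starts are shown for EBF1, which the E proteins switch on, and for LEF1 and IKZF1. LEF1 and IKZF1 are the 2 members with the highest level and the largest positive log2 change. The stretches were chosen because they hold core letters bound by other members. Each runs from 250 bases before to 50 bases after an annotated RefSeq start (build GRCh38.p14), 5′ to 3′ on the gene's strand. By the gene positions given here, all of the stretches shown lie inside their gene, downstream of its 5′ end. They therefore flank an internal start and are not sequence upstream of the whole gene. The positions are chr5:159097907-159098206 (minus strand) for EBF1, chr4:108166252-108166551 (minus strand) for LEF1 and chr7:50304466-50304765 (plus strand) for IKZF1, the last being 1 of 3 IKZF1 starts in the table. Capitals mark the E-box CAGCTG, which reads the same on both strands, and the Ikaros core TGGGAA or its complement TTCCCA.
EBF1: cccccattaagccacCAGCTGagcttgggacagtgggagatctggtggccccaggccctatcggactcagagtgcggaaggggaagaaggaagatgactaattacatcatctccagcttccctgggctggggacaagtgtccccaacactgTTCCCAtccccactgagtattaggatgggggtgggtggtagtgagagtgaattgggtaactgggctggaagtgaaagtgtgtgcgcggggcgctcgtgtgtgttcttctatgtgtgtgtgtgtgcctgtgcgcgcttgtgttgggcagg
LEF1: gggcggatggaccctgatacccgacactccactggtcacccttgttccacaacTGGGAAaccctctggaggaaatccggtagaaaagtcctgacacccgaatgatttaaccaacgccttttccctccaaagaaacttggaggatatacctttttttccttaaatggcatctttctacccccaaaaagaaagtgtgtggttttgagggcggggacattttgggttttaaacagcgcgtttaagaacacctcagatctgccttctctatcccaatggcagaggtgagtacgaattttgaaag
IKZF1: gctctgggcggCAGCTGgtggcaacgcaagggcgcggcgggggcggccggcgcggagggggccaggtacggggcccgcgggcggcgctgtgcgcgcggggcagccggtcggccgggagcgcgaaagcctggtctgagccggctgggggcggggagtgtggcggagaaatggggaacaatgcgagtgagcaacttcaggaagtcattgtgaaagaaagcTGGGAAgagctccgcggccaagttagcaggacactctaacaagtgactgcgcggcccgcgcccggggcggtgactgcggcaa

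The EBF1 and IKZF1 stretches each hold 1 E-box and 1 Ikaros core, and the LEF1 stretch holds 1 Ikaros core. The E-box was present in 17.9% and the Ikaros core in 24.0% of all 35116 stretches of this length at annotated starts. Of the 10 that belong to 8 of the members, 2 held the E-box and 3 the Ikaros core. The PU box GAGGAA, searched on both strands, was in 4 of the 10, beside 27.9% of all. The EBF1 core CCCNNGGG was in 2, for IKZF1 and SPIB, beside 19.1% of all. The LEF1 core CTTTGA was in 0 of the 10, beside 12.9% of all. These matches describe letters in the windows. The stretches differed in base composition, with a GC content of 57.0% for EBF1, 47.0% for LEF1 and 71.0% for IKZF1.

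IKZF1, the gene of the Ikaros zinc finger factor (chromosome 7, 50304068 to 50405101, plus strand), was the member with the largest log2 change. It had 52.3 and 49.2 FPKM in the controls against 56.1 and 61.1 FPKM after knockdown. Both knockdown libraries lay above both controls. The means were 50.7 ± 2.15 and 58.6 ± 3.51 FPKM (SD, n = 2 each), or 1.15 times the control level. On the log2 scale this was 0.20 ± 0.06 (SE), with a 95% limma interval from 0.05 to 0.35, and the limma adjusted p was 0.22. Without adjustment it was 0.016, and it was 0.11 without control replicate 1 and 0.063 without knockdown replicate 1, where the log2 change was 0.16 and 0.14. Those fits take the spread from the other group alone.

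IKZF3 (chromosome 17, 39757715 to 39864188, minus strand), which encodes Aiolos and is switched on later than Ikaros in B cell development, was barely detected. It had 0.0526 and 0.0692 FPKM in the controls against 0.0766 and 0.0353 FPKM after knockdown, with overlapping groups. It was under the mean of 1 FPKM and was not tested. Among the 5 Ikaros family genes, IKZF1 made up 54.5% to 57.7% of the summed FPKM and IKZF3 0.0333% to 0.0766%. IKZF2, which encodes Helios, was the relative next in level, with 26.1 and 22.5 FPKM in the controls against 28.2 and 29 FPKM after knockdown. It was higher in both knockdown libraries, with a ratio of 1.17, an unadjusted limma p of 0.023 and a limma adjusted p of 0.24. With the GC trend removed its log2 change was 0.15 instead of 0.23, and its unadjusted limma p was 0.082. The ratio of IKZF1 to IKZF2 stayed between 1.99 and 2.18 in the 4 libraries. IKZF4 and IKZF5 stood at means of 3.24 and 13.7 FPKM, with overlapping groups and ratios of 0.892 and 0.968.

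LEF1 and FOXO1 were the other members with positive log2 changes. LEF1 (chromosome 4, 108047545 to 108168956, minus strand) had 472 and 442 FPKM in the controls against 472 and 502 FPKM after knockdown. The groups overlapped, since control replicate 0 and knockdown replicate 0 were nearly equal. Its log2 change was 0.09, with a 95% limma interval from -0.06 to 0.24 and a limma adjusted p of 0.49. Without control replicate 0 the log2 change was 0.14, without control replicate 1 it was 0.04, and without knockdown replicate 1 it was 0.05. LEF1 supplied 97.8% to 98.3% of the summed FPKM of its 4-gene family. TCF7L2 supplied nearly all the rest, at a mean of 8.92 FPKM, and TCF7 and TCF7L1 were under 1 FPKM. LEF1-AS1, a gene that overlaps the upstream end of LEF1 on the opposite strand, stood at 18.3 to 21.5 FPKM, and strand-specific counting is not stated.

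FOXO1 (chromosome 13, 40469953 to 40666597, minus strand), a forkhead factor that PI3K and AKT signalling keeps out of the nucleus, had 12.6 and 12.3 FPKM in the controls against 13.8 and 13.3 FPKM after knockdown. Both knockdown libraries lay above both controls, with a ratio of 1.08, a log2 change of 0.11, a 95% limma interval from -0.03 to 0.25 and a limma adjusted p of 0.39. FOXO6, its relative, was lower in both knockdown libraries, with 6.40 and 7.58 FPKM in the controls against 3.83 and 4.19 FPKM after knockdown. The FOXO6 ratio was 0.574, with an unadjusted limma p of 0.00026 and a limma adjusted p of 0.16. FOXO1 made up 40.9% and 39.0% of the summed FOXO level in control libraries and 45.9% and 47.1% in knockdown libraries. FOXO3 and FOXO4 stood at means of 5.09 and 6.57 FPKM with overlapping groups.

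BACH2 and POU2AF1 had negative log2 changes. BACH2 (chromosome 6, 89926529 to 90296908, minus strand) had 18.4 and 18.8 FPKM in the controls against 18.8 and 17.2 FPKM after knockdown. The groups overlapped, and the log2 change of -0.05 (95% limma interval from -0.20 to 0.10, limma adjusted p of 0.74) turned to 0.011 without knockdown replicate 1. An antisense gene inside BACH2, AL121787.1, had 4.01 to 5.73 FPKM. BACH1, the other member of the family, had 12.2 to 12.7 FPKM with a ratio of 0.985.

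POU2AF1, the octamer coactivator (chromosome 11, 111352252 to 111455630, minus strand), had 73.8 and 74.4 FPKM in the controls against 69.1 and 62.2 FPKM after knockdown. Both knockdown libraries lay under both controls, and knockdown replicate 1 was the lowest. The means were 74.1 ± 0.409 and 65.7 ± 4.87 FPKM (SD, n = 2 each), or 0.886 times the control level. On the log2 scale this was -0.17 ± 0.06 (SE), with a 95% limma interval from -0.33 to -0.02, and the limma adjusted p was 0.26. Without adjustment it was 0.031, and it was 0.092 with the transcript GC trend removed. Without knockdown replicate 1 the log2 change was -0.10, and without knockdown replicate 0 it was -0.25. POU2F2 (OCT2), the lymphoid octamer factor that POU2AF1 binds, stood on the same side, at 10.7 and 10.4 FPKM in the controls against 9.06 and 9.21 FPKM after knockdown. Its ratio was 0.865, with an unadjusted limma p of 0.017 and a limma adjusted p of 0.22. POU2F1 (OCT1) overlapped between groups, with a ratio of 0.915.

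No value can be given for SPIB, the lymphoid ETS factor related to PU.1 (chromosome 19, 50418938 to 50431313, plus strand), because its Ensembl ID had no row. A gene model that overlaps SPIB on the same strand, AC020909.1 (chromosome 19, 50415799 to 50428409, GRCh38), had 11.7 and 10.5 FPKM in the controls against 10.5 and 12.0 FPKM after knockdown. How reads were shared at this locus is not given in the sources used here, so these values were not read as SPIB. Among its relatives, SPIC was listed at 0 in all 4 libraries. SPI1, which encodes PU.1, had 55.5 and 53.8 FPKM in the controls against 47.2 and 46.7 FPKM after knockdown, and its limma adjusted p was 0.19.

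In the LEF1, PAX and EBF families 1 gene dominated. PAX5 supplied 97.5% to 97.6% of the summed FPKM of 9 PAX genes, and PAX8, at 1.46 to 1.64 FPKM, was the only other PAX gene tested. EBF1 supplied 91.8% to 92.6% of the EBF family, with EBF4 at 8.77 to 10.4 FPKM. The E proteins, like the Ikaros and FOXO families, were more even. TCF3 supplied 48.0% to 52.9%, beside TCF4 at 84.4 to 99.9 FPKM and TCF12 at 84.1 to 99.3 FPKM, whose ratios of knockdown to control were 0.920 and 0.923. Of 28 family relatives, 15 were tested and 0 passed in limma over all genes. At an unadjusted limma p under 0.05, 1 was higher and 3 were lower, beside 7.25% and 9.35% of all genes tested. Of the 15, 13 had negative log2 changes (86.7%, beside 53.2% of all genes), with a median of -0.11. With the GC trend removed, SPI1 had a log2 change of -0.11 instead of -0.21 and an unadjusted limma p of 0.094. FOXO6 had -0.51 instead of -0.67, and POU2F2 -0.15 instead of -0.19. Both stayed under an unadjusted limma p of 0.05, at 0.00068 and 0.034, with limma adjusted p of 0.24 and 0.33. TCF4 and TCF12 then had log2 changes of -0.18 and -0.16 instead of -0.12 and -0.11. Their unadjusted limma p were 0.019 and 0.041, and their limma adjusted p 0.29 and 0.34.

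**Figure D3:**
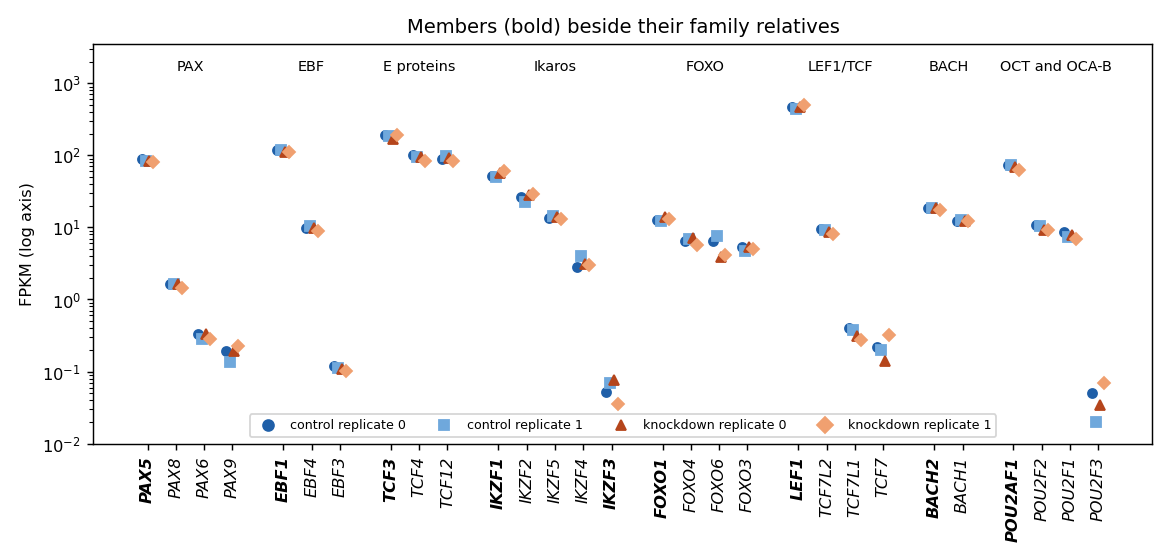
FPKM on a log axis of the members (bold) and their family relatives, grouped by family, with 1 point per library. LEF1, PAX5 and EBF1 stand far above their relatives, while TCF3 lies within a few times of TCF4 and TCF12. The 6 genes at 0 in any library are left out, and SPIB and its ETS relatives are not drawn.

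The list of partners and inhibitors of the members was broad and held some abundant genes. MYB, a factor of blood progenitors, had a mean of 557 FPKM. MZB1, a chaperone gene of antibody-secreting cells, had 293 FPKM and XBP1, a factor of the same stage, 244 FPKM. Neither MZB1 nor XBP1 is read here as a partner or inhibitor of a member. ID3, an inhibitor of E proteins, was abundant at 101 to 120 FPKM, and the ratio of TCF3 to ID3 was 1.75 and 1.84 in control libraries and 1.67 and 1.58 in knockdown libraries. Of 34 genes, 29 were tested and 0 passed in limma over all genes. At an unadjusted limma p under 0.05, 2 were higher and 3 were lower (6.90% and 10.3%, beside 7.25% and 9.35% of all genes). CBFB, the partner subunit of RUNX factors, had 27.4 and 22.2 FPKM in the controls against 32.2 and 32.4 FPKM after knockdown. IRF4, a factor of late B cell stages, had 46.1 and 43.2 FPKM in the controls against 51.0 and 55.6 FPKM after knockdown. On the lower side ID2, another E protein inhibitor, had a ratio of 0.770, LMO2 0.866 and ERG 0.904, and TLE1, a corepressor, had 0.859 at an unadjusted limma p of 0.062. The median log2 change of the list was -0.06.

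Among genes that the network is known to activate, those of the pre-B cell receptor and of antigen receptor recombination stood highest. Of 29 listed B lineage target genes, 27 had a row and 22 were tested, with 0 past limma over all genes and a median log2 change of -0.03. DNTT, IGLL1 and VPREB3 were the most abundant, at means of 1452, 913 and 524 FPKM. At an unadjusted limma p under 0.05, 0 were higher and 4 were lower (18.2%, beside 9.35% of all genes). These were the recombinase genes RAG1 and RAG2, with ratios of 0.827 and 0.855, VPREB3 with 0.893 and MEF2B with 0.895. With the GC trend removed, VPREB3 and MEF2B had unadjusted limma p of 0.14 and 0.63. RAG1 had 239.7 and 252 FPKM in the controls against 216 and 191 FPKM after knockdown, and a limma adjusted p of 0.20. RAG2 had 386 and 415 FPKM in the controls against 365 and 319 FPKM after knockdown, and a limma adjusted p of 0.25. Both genes were lowest in knockdown replicate 1, as POU2AF1 was. CD79B and BTK, of B cell receptor signalling, had ratios of 0.920 and 0.909.

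FOXO target genes, which share RAG1 and RAG2 with the preceding list, had log2 changes of both signs. All 18 with a row were tested, 0 passed in limma over all genes, and the median log2 change was -0.05. At an unadjusted limma p under 0.05, 1 was higher and 4 were lower (5.56% and 22.2%, beside 7.25% and 9.35% of all genes). CITED2, a transcriptional coregulator, had 12.9 and 11.7 FPKM in the controls against 14.1 and 15.5 FPKM after knockdown, and a ratio of 1.20. CCNG2, a cyclin gene, had a ratio of 1.12 at an unadjusted limma p of 0.054. SESN3 and IRS2 had ratios of 0.725 and 0.831. IL7R, a FOXO1 target that drives growth of B cell precursors, was the most abundant at 542 to 601 FPKM, with a ratio of 0.947.

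Genes around LEF1 in the WNT pathway numbered 22, of which 18 were tested and 0 passed in limma over all genes. Their median log2 change was -0.05, and 0 were higher and 3 were lower (16.7%, beside 9.35% of all genes) at an unadjusted limma p under 0.05. NKD2, an inhibitor of the pathway, had 21.1 and 20.4 FPKM in the controls against 16.5 and 16.1 FPKM after knockdown, and its limma adjusted p was 0.19. DVL3 and BCL9L had ratios of 0.90 and 0.872. LRP6, GSK3A and APC had 0.909, 0.925 and 0.90 at unadjusted limma p of 0.061, 0.075 and 0.11. With the GC trend removed, NKD2 had a log2 change of -0.20 instead of -0.33, DVL3 and BCL9L had unadjusted limma p of 0.12 and 0.20, and LRP6 and APC had 0.014 and 0.027. The LEF1 partner CTNNB1 (β-catenin) was at 61.9 to 65.4 FPKM, so LEF1 exceeded it 6.85 to 8.11 times in FPKM. CSNK1A1, a kinase of the β-catenin destruction complex, had a ratio of 1.00.

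Genes that PAX5 is known to repress were mostly low. Of 18 named, 17 had a row and 7 reached a mean of 1 FPKM. CSF1R, the receptor of macrophage colony-stimulating factor, was an exception, with a mean of 35.7 FPKM beside PAX5 at 84.3 FPKM and a ratio of 1.01. CD47 and EMB had means of 54.3 and 31.6 FPKM and ratios of 1.05 and 1.01, and FLT3, a receptor of early progenitors, had a ratio of 1.05. In limma over all genes 0 passed, and 0 were higher and 3 were lower (3 of 7, beside 9.35% of all genes) at an unadjusted p under 0.05. These were NKG7, LMO2 and NOTCH1, with ratios of 0.716, 0.866 and 0.891. With the GC trend removed, NKG7 stayed under that p at 0.0096, and LMO2 and NOTCH1 had unadjusted limma p of 0.087 and 0.30.

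**Figure D4:**
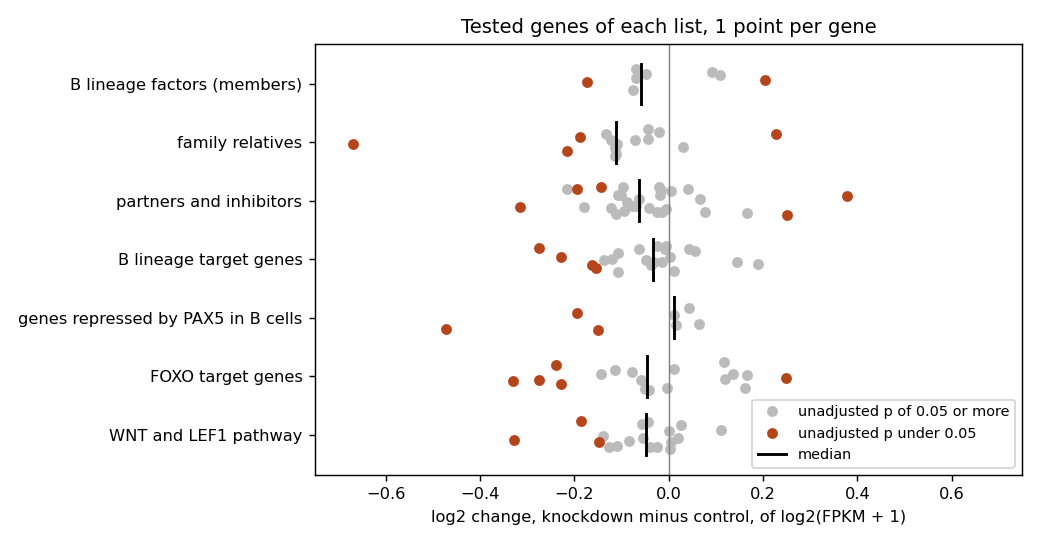
Log2 change of every tested gene in each list on the log2(FPKM + 1) scale, with 1 point per gene and a bar at each list's median. Points in orange have an unadjusted limma p under 0.05. Genes in more than 1 list are drawn in each, and 0 genes in these lists passed the adjusted test.

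Over the 104 tested genes of the 6 lists, without the members and each counted once, 4 were higher and 17 lower at an unadjusted limma p under 0.05, or 3.85% and 16.3%, beside 7.25% and 9.35% of all genes. Leaving out 1 library moved the total of 21 up or down, and the count over all genes at that p moved the same way each time. Transcript GC content moved with the changes. Across 12499 genes, which are not independent replicates, Spearman's rho between the GC content of the longest annotated transcript and the log2 change was -0.41. TCF3 is the member with the highest GC content, 61.2%, and EBF1 the one with the lowest, 41.1%. With the trend removed, the log2 change of EBF1 was -0.12 instead of -0.07, that of TCF3 0.0025, that of IKZF1 0.21 and that of LEF1 0.12. EBF1 then had an unadjusted limma p of 0.043 and a limma adjusted p of 0.35, and 0 members passed.

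**Figure D5:**
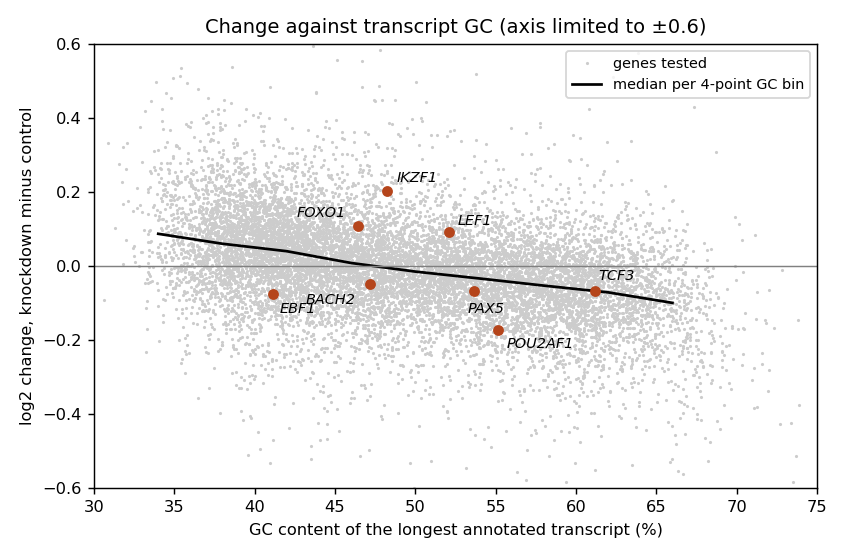
Log2 change (knockdown minus control) against the GC content of the longest annotated transcript, with 1 grey point per tested gene, the median of each GC bin as a black line and the 8 tested members in orange. The line declines from left to right; TCF3 lies on it, EBF1 below it and IKZF1 above it. The axis leaves out 56 genes beyond ±0.6.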

How the data were processed

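RNA-seq values came from 1 table with a value per library. The unit is not written in the file: the deposited values were read as FPKM made by the authors, since the ID column has Cuffdiff's name, Cuffdiff 2.2.1 is named beside TopHat2 2.0.14, Bowtie2 2.2.5 and the build hg19 in the submitters' processing notes, and values are not whole. For options, annotation and the scaling between libraries, nothing is given in the sources used here. An exact 0 may be a failed estimate. Depth was estimated from steps of FPKM times length in 1214 genes with 1 annotated transcript of at least 2500 nt; 81.2% to 89.9% of low values lay within 0.15 of a whole multiple.

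Symbols, positions and transcript GC come from GENCODE 29 and name tables on GRCh38, not the authors' build. Knockdown was compared with control by limma 3.58.1 in R 4.3.3 on log2(FPKM + 1). Genes averaging 1 FPKM or more, and HAL7, were fitted with a variance trend, and Benjamini-Hochberg adjustment of the two-sided p ran over all of them, with a threshold of 0.05. The fit was tested on simulated data. With 2 libraries in each group, permuting labels exactly cannot pass this threshold. The members and lists were chosen with earlier results of these data known. Every member was named; in each list, tested genes of smallest p (up to 6) and highest level (3) were named, and every tested family relative; in marker lists, the most abundant genes and those at 0 in all libraries. ID3, TCF7, TCF7L1, SPIC and genes overlapping a member were added outside this rule. Some genes are not reported here and were left out of the lists.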

Additional observations from a re-analysis of the deposited data

How the results depend on the processing

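In the main fit and under all 14 other settings, 0 members passed the adjusted limma test. At an unadjusted limma p under 0.05 there were 0 to 2 members in each setting, and IKZF1 was among them in 12 of 14 and POU2AF1 in 8 of 14. Log2 changes of 6 members kept their sign under every setting. TCF3 turned to 0.0049 without knockdown replicate 0 and to 0.0025 with the GC trend removed, and BACH2 to 0.011 without knockdown replicate 1; the cause was not tested. Fits without 1 library leave a group with a single library, assumed to vary like the other group. They gave -0.14 to 0.0049 for TCF3 and -0.11 to 0.011 for BACH2, and TCF3 had an unadjusted limma p of 0.043 without knockdown replicate 1. Over all genes, 4 passed in the main fit, 2 with a pseudocount of 0.1, 1 with a mean of at least 5 FPKM, and 0 of 28016 without a filter, where 3002 had an unadjusted limma p under 0.05. Leaving out 1 library gave 11 to 22, and for the lists 13 to 30 genes at an unadjusted limma p under 0.05 instead of 21. With the replicate number as a block, 19 genes passed over all genes, 0 members passed and the lists held 21; the numbers are not stated to pair cultures, and same-numbered deviations correlated at 0.12 across genes. Removing the GC trend and testing protein-coding genes only were chosen after seeing the data. With 2 libraries a group, the median SE of a log2 change was 0.07.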

Other observations

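Genes of the plasma cell marker list stood at unequal levels in these cells. PRDM1, the gene of the master regulator Blimp-1, had 0.0892 to 0.15 FPKM, while XBP1 had 233 to 258 FPKM, MZB1 283 to 299 FPKM and IRF4 43.2 to 55.6 FPKM. SDC1, the CD138 gene, had 10.4 to 11.2 FPKM. JCHAIN, which joins immunoglobulin polymers, had 4.94 and 5.59 FPKM in the controls against 6.57 and 9.29 FPKM after knockdown. PRDM1, JCHAIN and SDC1 were named after their values were seen.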
